A study of Mus musculus with 14 samples.

Results

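Cells make cholesterol from acetyl-CoA, take it up with lipoproteins and pass it on to acceptors outside the cell, and the genes for these steps were followed here in primary mouse hepatic stellate cells (HSCs). The group holds 33 listed genes in 5 roles, namely synthesis, control of the SREBP transcription factors, transport and uptake control, efflux and storage, and oxysterol enzymes. A gene was read from the probe set paired with its symbol and no other, and for a gene with several of them the brightest on average was taken. By this rule 31 of the 33 genes were measured, among 19938 gene symbols of the table. Acat2, a thiolase, and Soat1, which esterifies cholesterol for storage, had no such probe set, so that 18 synthesis genes, 5 SREBP control genes, 4 transport genes, the 2 efflux genes Abca1 and Abcg1 and the 2 oxysterol enzymes Cyp7b1 and Ch25h are described.

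Cholesterol is built through the mevalonate pathway, in which acetyl-CoA units become mevalonate, then isoprenoids, then squalene, and at last a sterol that a series of oxidases and reductases trims to cholesterol. The SREBP proteins are membrane-bound transcription factors that switch these genes on. The escort Scap carries them out of the endoplasmic reticulum when membrane cholesterol is low, and the Insig proteins hold the complex back when sterols are plentiful. Oxysterols, which are oxidised forms of cholesterol, bind the Insig proteins and also activate the liver X receptors, whose targets include the exporters Abca1 and Abcg1. HSCs store vitamin A and lipids in droplets in the healthy liver, and when cultured they lose the droplets and turn into contractile, collagen-producing myofibroblasts. Valproic acid (VPA) is a branched short-chain fatty acid that inhibits histone deacetylases.

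HSCs came from livers of BalbC mice (Balb/cByJ in the methods), and after 2 h on plastic the cells that had not attached were washed off, which is time 0. Cells were then kept with 2.5 mM VPA for 4 h (VPA4h) or 64 h (VPA64h), with 3 arrays each, or without VPA for 4 h (Ctrl4h, 3 arrays), 16 h (Ctrl16h, 2 arrays) or 64 h (Ctrl64h, 3 arrays). The arrays of a group are described as independent biological replicates. No VPA group at 16 h was analysed here, and the labels name no vehicle for the control cells. The values are log2 expression levels from 1 Affymetrix whole-transcript array per culture, so that a difference of 1 is a 2-fold change, and differences are given as log2 changes with the standard error (SE).

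A rise or a fall means here that limma gave an adjusted p under 0.05 and the change was at least 2-fold. Genes past the p limit alone are called higher or lower. Where arrays of compared groups are said to be separate or not to overlap, this only describes the values. It adds no separate support for genes picked by the limits on these same arrays. The share of all probe sets so separated was not counted. Array medians lay between 6.34 and 6.41 and arrays of a group correlated at 0.993 to 0.996 over all probe sets. The normalisation sets every array to the same distribution, so a change is relative to the other transcripts of that array. With each array centred on 9 housekeeping genes instead, the median change of all tested probe sets moved by -0.067 for VPA4h against Ctrl4h and 0.043 for VPA64h against Ctrl64h, but by -0.37 for Ctrl16h against Ctrl4h, -0.55 for Ctrl64h against Ctrl16h, -0.92 over the control course of 4 h to 64 h and -0.81 over the same course with VPA. The median level of these 9 genes was 9.12 to 9.33 in Ctrl4h, 9.62 to 9.65 in Ctrl16h and 10.12 to 10.22 in Ctrl64h. With VPA it was 9.23 to 9.42 at 4 h and 10.04 to 10.22 at 64 h. Whether these genes themselves respond to culture was not tested, so centring is only a second scaling. Changes over culture time are therefore given relative to the array, and for the listed genes counts after centring stand beside them. The 10 stellate cell markers were all measured, and their summed level, as log2, was 13.84 to 14.10 in VPA4h, 13.85 to 13.98 in Ctrl4h, 13.76 to 13.90 in Ctrl16h, 13.63 to 13.74 in VPA64h and 14.37 to 14.39 in Ctrl64h. For Ctrl64h against Ctrl4h 4 of these 10 rose and 4 fell, beside 6.68% and 3.71% of all tested probe sets. The sum weighs bright probe sets most and does not measure the stellate cell content.

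The stretches of DNA before the start sites are shown as a description. The SREBP proteins act at promoters of synthesis genes with the help of the factor NF-Y, which binds the letters CCAAT. Of the 18 synthesis genes 14 rose between 4 h and 64 h in control culture, where 6.68% of all tested probe sets rose. After centring on housekeeping genes 5 rose and 1 fell. A part of these motifs in the rise was not tested. RefSeq (GRCm38.p6) gave promoters for 26 of the 33 genes, 34 in all. The 250 bases before each start site were searched on both strands for CCAAT and for the sterol response element written as TCACNCCAC, and each motif was counted on its own. CCAAT was found in 15 of 19 promoters of synthesis genes (78.9%, 15 of 16 genes with a promoter), against 33.8% of all 32851 promoters. These 16 genes include the unmeasured Acat2 and Hmgcs1, Mvd, Ggps1 and Tm7sf2, which did not rise, and lack the risers Fdps, Fdft1 and Sqle. CCAAT also lay in 5 of 10 promoters of SREBP control genes and none of 1 of oxysterol enzymes. Of efflux and storage 1 of 2 held it, that of the unmeasured Soat1. Both promoters of transport genes held it, among them that of Mylip, which fell by 16 h. TCACNCCAC was found in 1 of the 19, that of Hmgcs1, against 1.05% of all promoters. The last 150 bases before the start site follow for Hmgcs1 (chr13:119690201-119690350, plus strand), which holds both motifs, for Idi1 (chr13:8885456-8885605, plus strand) and Ebp (chrX:8193513-8193662, minus strand), which changed strongly in culture and answered differently to VPA at 4 h and at 64 h, and for the exporter Abca1 (chr4:53159896-53160045, minus strand), which went the other way in culture. Capitals mark matches, and ATTGG is CCAAT on the other strand.
Hmgcs1: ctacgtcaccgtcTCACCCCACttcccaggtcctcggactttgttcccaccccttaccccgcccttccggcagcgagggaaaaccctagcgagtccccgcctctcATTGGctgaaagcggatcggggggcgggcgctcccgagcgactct
Idi1: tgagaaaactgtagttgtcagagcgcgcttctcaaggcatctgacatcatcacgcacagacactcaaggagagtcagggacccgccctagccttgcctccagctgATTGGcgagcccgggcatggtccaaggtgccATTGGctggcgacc
Ebp: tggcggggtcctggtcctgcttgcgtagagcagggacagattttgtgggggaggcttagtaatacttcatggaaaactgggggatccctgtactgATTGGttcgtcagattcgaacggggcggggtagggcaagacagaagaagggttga
Abca1: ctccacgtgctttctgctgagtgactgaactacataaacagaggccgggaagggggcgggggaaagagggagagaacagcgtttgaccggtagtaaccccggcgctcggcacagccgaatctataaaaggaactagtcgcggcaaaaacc
The Idi1 stretch holds CCAAT at 2 places on the other strand, the Ebp and Hmgcs1 stretches hold it at 1 place, and neither motif lies in the whole 250 bases searched for Abca1. A match describes letters only and says nothing of binding in these cells.

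In the whole group, 22 of the 31 measured genes rose or fell in at least 1 of the 7 comparisons, where 15.6% of all tested probe sets did. The 9 that did not were Hmgcs1, Mvd, Ggps1 and Tm7sf2 of synthesis, Srebf1, Srebf2, Insig1 and Scap of SREBP control, and Npc2 of lysosomal export. The roles moved apart in control culture. For Ctrl64h against Ctrl4h the median change was 1.39 over the 18 synthesis genes, -0.034 over the 5 SREBP control genes, 0.68 over the 4 transport genes, -1.57 over the 2 efflux genes and -0.35 over the 2 oxysterol enzymes, beside -0.089 over all tested probe sets. Centred on housekeeping genes these medians were 0.47, -0.96, -0.24, -2.49 and -1.28, so that the sign of the transport median turned. For VPA64h against VPA4h the median was 0.93 over synthesis and -2.001 over efflux, beside -0.0805 over all tested probe sets. Centred on housekeeping genes these role medians were 0.12 and -2.81. The efflux median over the course with VPA was thus further from 0 than in control culture. Between VPA and control cells of the same time the medians of synthesis and efflux lay closer to 0 than over culture time. For VPA4h against Ctrl4h they were 0.35 for synthesis, -0.22 for SREBP control and -0.085 for efflux, and for VPA64h against Ctrl64h -0.071, 0.16 and -0.52, beside -0.025 at 4 h and 0.0037 at 64 h over all tested probe sets.

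**Figure D1:**
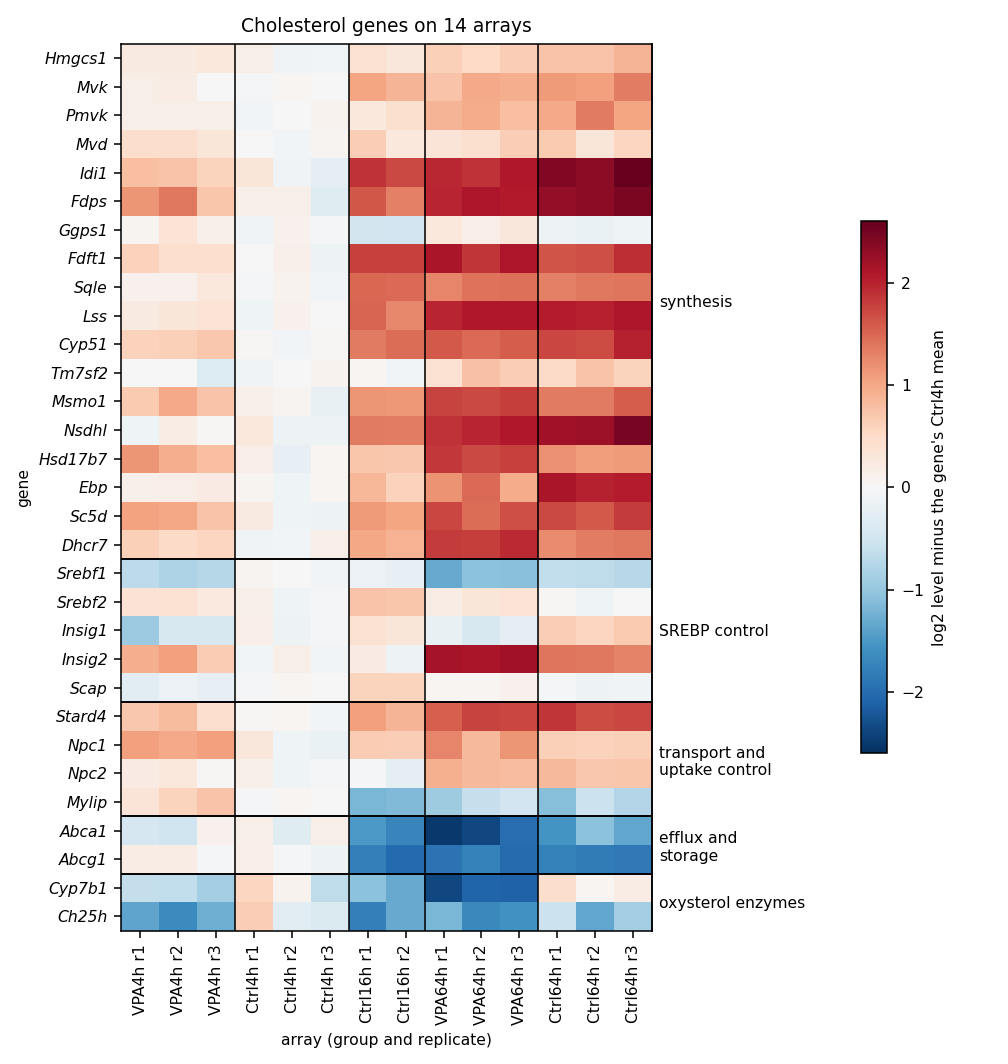
Log2 level of the 31 measured genes (rows, by role) on the 14 arrays (columns), minus the mean of the gene's Ctrl4h arrays; red is higher and blue lower than Ctrl4h. Most synthesis genes are red from Ctrl16h on, while Abca1 and Abcg1 are blue there; with arrays centred on housekeeping genes 5 synthesis genes rather than 14 rose between 4 h and 64 h, and Hmgcs1, Mvd and Tm7sf2 changed sign.

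Many enzymes of cholesterol synthesis rose early in control culture. Between 4 h and 16 h, 9 of the 18 genes rose and none fell, where 0.705% of all tested probe sets rose and 1.21% fell (centred on housekeeping genes 6 rose and none fell, with Hmgcs1 and Pmvk changing sign). Between 16 h and 64 h only 1 further gene passed both limits, Ebp, where 4.52% of probe sets rose and 2.08% fell (centred, none rose and 8 of the 18 changed sign). Over the whole interval from 4 h to 64 h, 14 rose and none fell, where 6.68% rose and 3.71% fell (centred, Idi1, Fdps, Lss, Nsdhl and Ebp rose, Ggps1 fell, and Hmgcs1, Mvd and Tm7sf2 changed sign). All 9 genes that had risen by 16 h were among the 14. These comparisons share the Ctrl4h and Ctrl64h arrays with those of VPA below and with one another.

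Idi1, which interconverts the isoprenoid building blocks, had levels of 7.01, 6.61 and 6.48 in Ctrl4h, 8.57 and 8.41 in Ctrl16h and 9.10, 9.03 and 9.36 in Ctrl64h. The 3 times were fully separate, with the largest step by 16 h. The change was 1.79 (SE 0.14, adjusted p = 4.98e-07) for Ctrl16h against Ctrl4h and 2.46 (SE 0.13, adjusted p = 3.02e-10) for Ctrl64h against Ctrl4h, and the other probe set of the gene gave 1.91 and 2.58. Fdps, which joins these blocks to farnesyl diphosphate, had 6.72, 6.73 and 6.25 in Ctrl4h, 8.18 and 7.87 in Ctrl16h and 8.85, 8.88 and 9.0 in Ctrl64h. Its arrays also separated by time. Fdps rose by 1.46 (SE 0.17, adjusted p = 1.78e-05) to 16 h and by 2.35 (SE 0.15, adjusted p = 3.83e-09) to 64 h, and for Ctrl64h against Ctrl16h it was 0.88 (adjusted p = 0.000635), or 1.04 without Ctrl16h replicate 1.

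Squalene synthase and squalene epoxidase rose by 16 h, with no further rise measured after it. Fdft1, the synthase, showed 6.38, 6.52 and 6.25 in Ctrl4h, 8.17 and 8.15 in Ctrl16h and 8.03, 8.06 and 8.30 in Ctrl64h, and its 16 h and 64 h arrays overlapped. It rose by 1.78 (SE 0.12, adjusted p = 7.71e-08) between 4 h and 16 h, and the change after that was -0.032 with a 95% interval of -0.28 to 0.21. A second probe set of Fdft1 gave 1.70 by 16 h. Sqle, the epoxidase, had levels of 6.99, 7.11 and 6.95 in Ctrl4h, 8.51 and 8.49 in Ctrl16h and 8.33, 8.38 and 8.42 in Ctrl64h. The change by 16 h was 1.49 (SE 0.091, adjusted p = 4.74e-08), and that after 16 h was -0.12 with an interval of -0.32 to 0.069. For Ctrl64h against Ctrl4h Fdft1 rose by 1.75 (SE 0.10, adjusted p = 1.31e-09) and Sqle by 1.36 (SE 0.081, adjusted p = 1.4e-09), but after centring on housekeeping genes they were 0.82 and 0.44, under 2-fold.

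Lss, which closes the squalene chain to lanosterol, had 6.10, 6.32 and 6.20 in Ctrl4h, 7.71 and 7.47 in Ctrl16h and 8.25, 8.23 and 8.30 in Ctrl64h. Cyp51, which removes a methyl group from lanosterol, had 5.85, 5.75 and 5.84 in Ctrl4h, 7.17 and 7.26 in Ctrl16h and 7.55, 7.52 and 7.81 in Ctrl64h. For both genes every later array lay above every earlier one. Lss rose by 1.38 (SE 0.10, adjusted p = 1.41e-07) to 16 h and by 2.05 (SE 0.086, adjusted p = 4.02e-11) to 64 h. Cyp51 rose by 1.41 (SE 0.10, adjusted p = 1.41e-07) and by 1.81 (SE 0.088, adjusted p = 1.62e-10), and after centring on housekeeping genes only its 64 h change was under 2-fold, at 0.89.

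Further down the pathway, 2 of the enzymes that take part in removing methyl groups at the fourth carbon of the sterol went the same way. Hsd17b7, another of them, is given below. Msmo1, the oxidase, had 9.23, 9.18 and 8.91 in Ctrl4h, 10.26 and 10.24 in Ctrl16h and 10.45, 10.45 and 10.69 in Ctrl64h. Nsdhl, the dehydrogenase, had 7.35, 6.94 and 6.96 in Ctrl4h, 8.43 and 8.41 in Ctrl16h and 9.28, 9.32 and 9.55 in Ctrl64h. Msmo1 made most of its step by 16 h, while Nsdhl was again higher at 64 h than at 16 h. The changes for Ctrl16h against Ctrl4h were 1.15 (SE 0.12, adjusted p = 4.8e-06) for Msmo1 and 1.33 (SE 0.13, adjusted p = 3.51e-06) for Nsdhl, and those for Ctrl64h against Ctrl4h were 1.43 (SE 0.10, adjusted p = 1.37e-08) for Msmo1 and 2.29 (SE 0.12, adjusted p = 2.7e-10) for Nsdhl. Centring on housekeeping genes took the 16 h changes under 2-fold, to 0.77 for Msmo1 and 0.96 for Nsdhl, and the 64 h change of Msmo1 to 0.50. Between 16 h and 64 h Nsdhl was higher by 0.96 (adjusted p = 2.56e-05), and by 1.01 without Ctrl64h replicate 1.

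Ebp, the sterol isomerase, was the synthesis gene with the largest change between 16 h and 64 h. Its levels were 6.66, 6.49 and 6.64 in Ctrl4h, 7.46 and 7.20 in Ctrl16h and 8.71, 8.60 and 8.64 in Ctrl64h, with no overlap. The change was 1.32 (SE 0.13, adjusted p = 6.63e-07) in that interval (0.78 after centring on housekeeping genes, below 2-fold) and 2.06 (SE 0.11, adjusted p = 5.22e-10) over the whole course. Sc5d, which adds a double bond to the sterol ring, had 7.80, 7.44 and 7.43 in Ctrl4h, 8.67 and 8.58 in Ctrl16h and 9.28, 9.14 and 9.38 in Ctrl64h. It rose by 1.07 (SE 0.13, adjusted p = 2.9e-05) to 16 h and 1.71 (SE 0.12, adjusted p = 6.81e-09) to 64 h, and the arrays of the 3 times did not overlap. After centring these were 0.69 and 0.78, under 2-fold.

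The remaining risers passed the 2-fold limit only by 64 h. Mvk, mevalonate kinase, had 6.73, 6.82 and 6.78 in Ctrl4h, 7.81 and 7.66 in Ctrl16h and 7.88, 7.84 and 8.10 in Ctrl64h. Pmvk, the next kinase, had 6.09, 6.16 and 6.25 in Ctrl4h, 6.44 and 6.58 in Ctrl16h and 7.15, 7.51 and 7.19 in Ctrl64h. Mvk was near its 64 h level at 16 h, whereas Pmvk made most of its step after 16 h. For Ctrl64h against Ctrl4h Mvk rose by 1.16 (SE 0.094, adjusted p = 3.96e-08) and Pmvk by 1.12 (SE 0.10, adjusted p = 9.11e-08), but after centring they were 0.24 and 0.20 and past neither limit. Hsd17b7, a sterol ketone reductase, had 7.81, 7.43 and 7.68 in Ctrl4h, 8.37 and 8.33 in Ctrl16h and 8.83, 8.73 and 8.75 in Ctrl64h. Dhcr7, a reductase of the last steps, had 6.09, 6.11 and 6.34 in Ctrl4h, 7.18 and 7.08 in Ctrl16h and 7.41, 7.50 and 7.54 in Ctrl64h. Both were separate at all 3 times and rose to 64 h, Hsd17b7 by 1.13 (SE 0.11, adjusted p = 2.2e-07) and Dhcr7 by 1.30 (SE 0.087, adjusted p = 5.02e-09). At 16 h Mvk and Dhcr7 stood just under 2-fold, at 0.96 and 0.95, and passed it without Ctrl16h replicate 2 (1.03) and without Ctrl4h replicate 3 (1.03). After centring Hsd17b7 was 0.20 and Dhcr7 0.38.

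The 4 synthesis genes that never passed both limits were Hmgcs1, Mvd, Tm7sf2 and Ggps1. Hmgcs1, which makes HMG-CoA, averaged 8.47 ± 0.13 in Ctrl4h, 8.82 ± 0.072 in Ctrl16h and 9.26 ± 0.079 in Ctrl64h (SD, n = 3, 2 and 3), and was 0.79 (adjusted p = 1.01e-06) at 64 h against 4 h. Mvd, which decarboxylates mevalonate diphosphate, was 0.52 (adjusted p = 0.00115) and Tm7sf2, a sterol reductase, 0.60 (adjusted p = 0.000362), and these 3 genes changed sign after centring. Ggps1, which diverts farnesyl diphosphate to the tails of prenylated proteins and not to sterols, went the other way at 16 h. It averaged 9.15 ± 0.11 in Ctrl4h, 8.66 ± 0.014 in Ctrl16h and 9.01 ± 0.026 in Ctrl64h, with a change of -0.49 at 16 h (adjusted p = 0.00214).

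**Figure D2:**
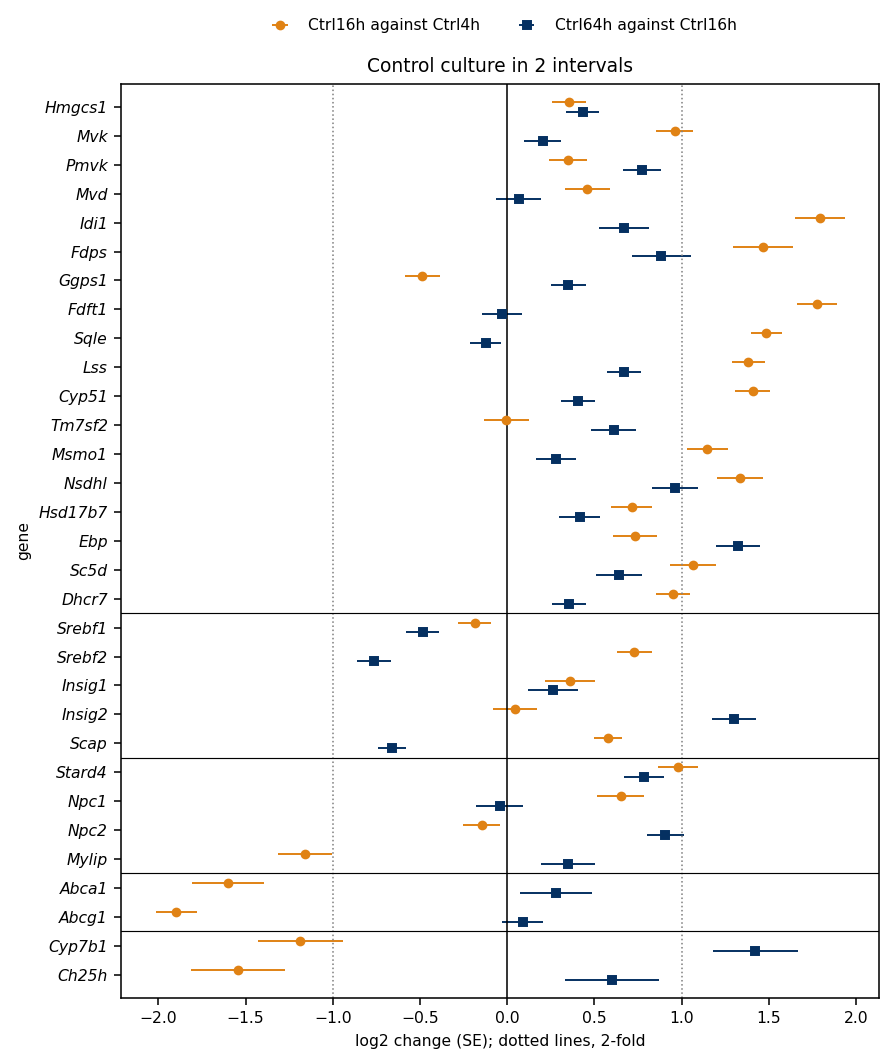
Log2 change of each gene (points, with SE bars) for Ctrl16h against Ctrl4h (circles) and Ctrl64h against Ctrl16h (squares), with dotted lines at 2-fold. Among synthesis genes 9 circles with an adjusted p under 0.05 lie right of 2-fold and 1 square does, Ebp; centring on housekeeping genes leaves 6 circles and no square, and turns the sign of Hmgcs1, Pmvk, Insig1 and Insig2 in the first interval and of 12 genes in the second.

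In the presence of VPA the synthesis genes were mostly higher at 64 h than at 4 h, and fewer passed 2-fold. For VPA64h against VPA4h 7 of the 18 rose and none fell, where 5.26% of probe sets rose and 2.29% fell, and the median was 0.93, beside 1.39 for Ctrl64h against Ctrl4h. Centred on housekeeping genes only Nsdhl rose, and Hmgcs1, Mvk, Pmvk, Mvd, Ggps1, Tm7sf2 and Sc5d changed sign. The genes that rose were Nsdhl (1.95), Lss (1.75), Fdft1 (1.54), Dhcr7 (1.30), Idi1 (1.27), Sqle (1.20) and Ebp (1.03), with adjusted p of at most 1.59e-06. Ebp was 0.90 without VPA64h replicate 2. Msmo1 and Fdps lay just under 2-fold at 0.96 and 0.96 and were 1.05 and 1.11 without VPA4h replicate 2. Nsdhl had 8.96, 9.07 and 9.17 in VPA64h and 6.97, 7.27 and 7.12 in VPA4h. Lss had 8.20, 8.30 and 8.29 in VPA64h and 6.44, 6.53 and 6.56 in VPA4h, and Sqle had 8.28, 8.42 and 8.44 in VPA64h and 7.13, 7.12 and 7.29 in VPA4h. The groups did not overlap for these 3 genes, which were picked by both limits on these same arrays.

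After 4 h with VPA the synthesis genes were shifted upwards. Of 18 genes 17 had a mean above Ctrl4h, and 1 rose at least 2-fold, Fdps, where 0.867% of all tested probe sets rose and 0.555% fell. By p alone 10 were higher and none lower, where 11.5% of probe sets were higher and 9.96% lower. After centring on housekeeping genes Fdps again rose and 16 of the 18 lay above 0, with Nsdhl changing sign.

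Fdps had levels of 7.72, 7.94 and 7.28 in VPA4h, against 6.72, 6.73 and 6.25 in Ctrl4h. Every VPA4h array lay above every Ctrl4h array, and the change was 1.09 (SE 0.15, adjusted p = 6.67e-05). The change was under 2-fold without Ctrl4h replicate 3 (0.93) or VPA4h replicate 2 (0.94). Hsd17b7 had 8.80, 8.59 and 8.42 in VPA4h and 7.81, 7.43 and 7.68 in Ctrl4h, a change of 0.96 (SE 0.11, adjusted p = 6.52e-06). Sc5d had 8.60, 8.56 and 8.30 in VPA4h and 7.80, 7.44 and 7.43 in Ctrl4h, a change of 0.93 (SE 0.12, adjusted p = 2.41e-05). Both lay just short of 2-fold with no overlap, and both passed it without Ctrl4h replicate 1 (1.05 and 1.05) and without VPA4h replicate 3 (1.05 and 1.02).

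The other synthesis genes past the p limit at 4 h were Msmo1 (0.80, adjusted p = 3.25e-05), Idi1 (0.70, adjusted p = 0.000652), Cyp51 (0.64, adjusted p = 4.9e-05), Dhcr7 (0.55, adjusted p = 0.000184), Fdft1 (0.49, adjusted p = 0.00224), Mvd (0.41, adjusted p = 0.0169) and Lss (0.30, adjusted p = 0.0181). In all 7 the VPA4h arrays lay above the Ctrl4h arrays. The 7 were picked by the p limit on these same arrays, so this adds no separate support. The share of all probe sets so separated was not counted. Idi1 had 7.49, 7.44 and 7.27 in VPA4h against 7.01, 6.61 and 6.48 in Ctrl4h, and Msmo1 had 9.78, 10.08 and 9.85 in VPA4h against 9.23, 9.18 and 8.91 in Ctrl4h. Cyp51 had 6.41, 6.44 and 6.52 in VPA4h against 5.85, 5.75 and 5.84 in Ctrl4h, and Fdft1 had 6.98, 6.82 and 6.82 in VPA4h against 6.38, 6.52 and 6.25 in Ctrl4h. Dhcr7 had 6.81, 6.67 and 6.73 in VPA4h against 6.09, 6.11 and 6.34 in Ctrl4h. Sqle, Ebp and Nsdhl, which rose at least 2-fold in control culture, differed by 0.16, 0.17 and 0.032 with VPA at 4 h, with 95% intervals of -0.0095 to 0.34, -0.068 to 0.41 and -0.22 to 0.28. Ebp had 6.72, 6.77 and 6.81 in VPA4h, just above 6.66, 6.49 and 6.64 in Ctrl4h. The mevalonate kinases did not pass the p limit at 4 h, Mvk with 6.94, 6.97 and 6.79 in VPA4h (0.12, adjusted p = 0.459) and Pmvk with 6.32, 6.33 and 6.31 in VPA4h (0.15, adjusted p = 0.34).

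After 64 h with VPA the synthesis genes no longer lay on one side. None rose or fell at least 2-fold, where 1% of probe sets rose and 1.14% fell. By p alone Hsd17b7, Dhcr7, Ggps1 and Msmo1 were higher and Ebp, Idi1, Mvk and Cyp51 lower, where 12.8% of probe sets were higher and 11.2% lower. Ebp had 7.76, 8.07 and 7.56 in VPA64h and 8.71, 8.60 and 8.64 in Ctrl64h, a change of -0.85 (SE 0.11, adjusted p = 4.47e-05). The lowest Ctrl64h array stood above the highest VPA64h array. Hsd17b7 had 9.49, 9.36 and 9.41 in VPA64h and 8.83, 8.73 and 8.75 in Ctrl64h, a change of 0.65 (SE 0.11, adjusted p = 0.000316), and Dhcr7 had 8.0, 7.99 and 8.13 in VPA64h and 7.41, 7.50 and 7.54 in Ctrl64h, a change of 0.55 (SE 0.087, adjusted p = 0.000235). These were separate in the opposite direction.

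Smaller 64 h changes with VPA went both ways. Idi1 had 8.65, 8.58 and 8.77 in VPA64h and 9.10, 9.03 and 9.36 in Ctrl64h (-0.49, adjusted p = 0.00972), and Mvk had 7.53, 7.75 and 7.72 in VPA64h and 7.88, 7.84 and 8.10 in Ctrl64h (-0.27, adjusted p = 0.0462). Cyp51 had 7.41, 7.29 and 7.39 in VPA64h and 7.55, 7.52 and 7.81 in Ctrl64h (-0.26, adjusted p = 0.041). Arrays with and without VPA did not overlap for these 3 genes, which were picked by the p limit on these same arrays. Msmo1 was higher, with 10.86, 10.82 and 10.91 in VPA64h and 10.45, 10.45 and 10.69 in Ctrl64h (0.33, adjusted p = 0.0293), and so was Ggps1 (0.39, adjusted p = 0.00451). Fdps, the riser at 4 h, had 8.55, 8.67 and 8.62 in VPA64h, all below 8.85, 8.88 and 9.0 in Ctrl64h, but did not pass the p limit (-0.30, adjusted p = 0.182). Fdft1 had 8.51, 8.23 and 8.49 in VPA64h (0.29, adjusted p = 0.0578), Sc5d had 9.31, 9.02 and 9.24 in VPA64h (-0.079, adjusted p = 0.693), Pmvk had 7.06, 7.13 and 6.95 in VPA64h (-0.24, adjusted p = 0.094) and Nsdhl had 8.96, 9.07 and 9.17 in VPA64h (-0.31, adjusted p = 0.0665), none of them past the p limit. For Sqle and Lss the change was 0.0047 and 0.0012, with intervals of -0.17 to 0.18 and -0.18 to 0.18.

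The effect of VPA at 64 h minus that at 4 h was tested directly. The difference was at least 2-fold and negative for 4 synthesis genes, Fdps at -1.39 (SE 0.22, adjusted p = 0.000376), Idi1 at -1.19 (SE 0.18, adjusted p = 0.000284), Ebp at -1.02 (SE 0.16, adjusted p = 0.000347) and Sc5d at -1.01 (SE 0.17, adjusted p = 0.000582), where 0.893% of all tested probe sets rose and 1.7% fell by this measure. Of the 18 genes 16 had a difference below 0, the exceptions being Ggps1 and Tm7sf2, and the median was -0.39, beside 0.025 over all tested probe sets. Idi1 and Cyp51 were higher with VPA at 4 h and lower at 64 h by p alone, whereas for Fdps and Sc5d the 64 h effects were -0.30 (adjusted p = 0.182) and -0.079 (adjusted p = 0.693). The difference for Ebp was under 2-fold without Ctrl4h replicate 2 (-0.97) or VPA64h replicate 3 (-0.91) and just under it without Ctrl64h replicate 1. Sc5d was between -0.97 and -0.92 without any 1 of Ctrl4h replicates 2 and 3, VPA4h replicates 1 and 2, Ctrl64h replicate 3 and VPA64h replicate 2. Centred on housekeeping genes Idi1 and Fdps passed both limits, Ebp was -0.91 and Sc5d -0.90, and 15 of the 18 lay below 0, Dhcr7 having changed sign.

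**Figure D3:**
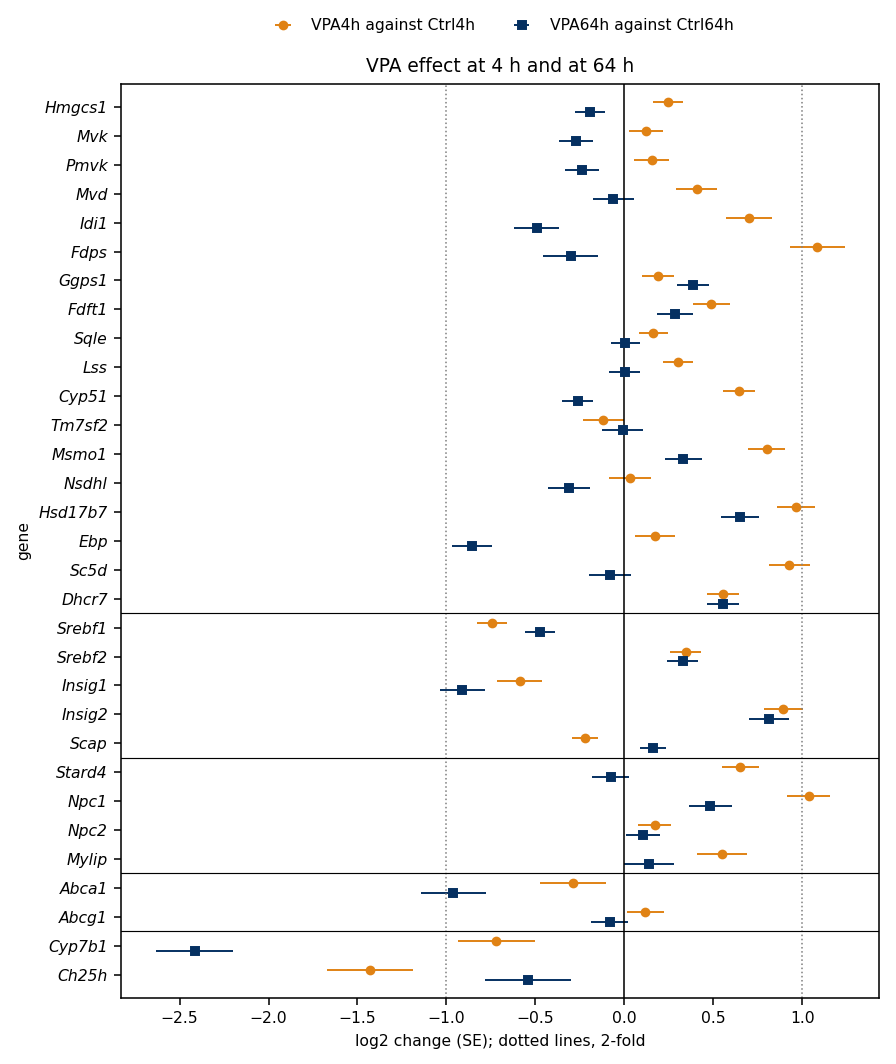
Log2 change of each gene (points, with SE bars) for VPA4h against Ctrl4h (circles) and VPA64h against Ctrl64h (squares), with dotted lines at 2-fold. In the synthesis block 17 of 18 circles lie above 0 and 7 of 18 squares do, and Cyp7b1 has the lowest square; centring on housekeeping genes gives 16 circles and 8 squares above 0, with Nsdhl changing sign at 4 h and Tm7sf2 at 64 h.

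Of the 5 SREBP control genes only Insig2 passed both limits in any comparison. Insig1 and Insig2, which encode the anchors of the SREBP complex, answered to VPA in opposite directions at both times. Insig2 had 8.71, 8.84 and 8.42 in VPA4h against 7.69, 7.91 and 7.69 in Ctrl4h, and 9.93, 9.89 and 9.94 in VPA64h against 9.15, 9.13 and 9.04 in Ctrl64h. Insig1 had 7.39, 7.91 and 7.91 in VPA4h against 8.50, 8.20 and 8.29 in Ctrl4h, and 8.14, 7.90 and 8.08 in VPA64h against 8.96, 8.87 and 9.01 in Ctrl64h. All VPA arrays lay above their controls for Insig2 and below them for Insig1. The changes for Insig2 were 0.89 (SE 0.11, adjusted p = 2.17e-05) at 4 h and 0.81 (SE 0.11, adjusted p = 7.07e-05) at 64 h, those for Insig1 -0.59 (SE 0.13, adjusted p = 0.00268) and -0.91 (SE 0.13, adjusted p = 8.45e-05). None reached 2-fold, except Insig2 at 4 h without VPA4h replicate 3 (1.01). The effects at 64 h minus those at 4 h were -0.08 for Insig2 and -0.32 for Insig1, with 95% intervals of -0.42 to 0.26 and -0.71 to 0.062.

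In control culture Insig2 had 7.98 and 7.64 at 16 h, overlapping with 4 h, and rose only after that, by 1.30 (SE 0.13, adjusted p = 8.19e-07) between 16 h and 64 h and 1.34 (SE 0.11, adjusted p = 5.68e-08) between 4 h and 64 h. With VPA it rose by 1.26 (SE 0.11, adjusted p = 1.66e-07) between 4 h and 64 h. Centred on housekeeping genes these 3 changes were 0.75, 0.42 and 0.45, below 2-fold. Insig1 averaged 8.33 ± 0.15 at 4 h, 8.69 ± 0.058 at 16 h and 8.95 ± 0.068 at 64 h in control cells (SD, n = 3, 2 and 3), higher at 64 h against 4 h by 0.62 (adjusted p = 0.000637), a sign that turned after centring.

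Srebf1, which encodes the SREBP-1 proteins, was lower with VPA at both times. It averaged 8.08 ± 0.06 in VPA4h and 8.82 ± 0.074 in Ctrl4h, and 7.67 ± 0.14 in VPA64h and 8.15 ± 0.049 in Ctrl64h (SD, n = 3 each). The arrays did not overlap at either time, and the changes were -0.74 (SE 0.084, adjusted p = 8.33e-06) and -0.48 (SE 0.084, adjusted p = 0.00062). Srebf2, the SREBP chiefly tied to cholesterol synthesis, was higher with VPA by 0.35 (adjusted p = 0.00868) at 4 h and 0.33 (adjusted p = 0.0122) at 64 h. Scap was -0.22 (adjusted p = 0.0426) at 4 h and 0.16 (adjusted p = 0.128) at 64 h, a difference of 0.38 (adjusted p = 0.0187).

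Srebf2 and Scap had their highest control level at 16 h. Srebf2 averaged 8.84 ± 0.14 in Ctrl4h, 9.57 ± 0.022 in Ctrl16h and 8.81 ± 0.071 in Ctrl64h, and Scap averaged 8.54 ± 0.054 in Ctrl4h, 9.12 ± 0.0081 in Ctrl16h and 8.46 ± 0.051 in Ctrl64h (SD, n = 3, 2 and 3). Both 16 h arrays lay above every 4 h and 64 h control array for both genes. Srebf2 differed by 0.73 (adjusted p = 6.6e-05) to 16 h and by -0.76 (adjusted p = 1.52e-05) after it, and Scap by 0.58 (adjusted p = 9.84e-05) and -0.66 (adjusted p = 9.8e-06). Srebf1 differed between 64 h and 4 h by -0.67 (adjusted p = 5.23e-06). Centred on housekeeping genes Srebf1, Srebf2 and Scap fell at least 2-fold between 16 h and 64 h, at -1.03, -1.31 and -1.21, so that the size of these changes rests on the scaling. The 2 arrays of Ctrl16h carry this 16 h pattern.

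Among the transport genes, Npc1, the membrane protein that moves cholesterol out of lysosomes, rose with VPA at 4 h. It had 8.95, 8.86 and 8.94 in VPA4h against 8.17, 7.76 and 7.70 in Ctrl4h, and 9.15, 8.73 and 9.03 in VPA64h against 8.50, 8.48 and 8.49 in Ctrl64h. The VPA arrays stood above the controls at both times. The changes were 1.04 (SE 0.12, adjusted p = 1.04e-05) at 4 h and 0.48 (SE 0.12, adjusted p = 0.00744) at 64 h, with a difference of -0.55 (adjusted p = 0.0362). The 4 h value was under 2-fold without Ctrl4h replicate 2 (0.98) or 3 (0.95) and after centring on housekeeping genes (0.97). Npc1 had 8.54 and 8.53 in Ctrl16h, above all Ctrl4h arrays (0.65, adjusted p = 0.00227). Npc2, its soluble partner, was 0.17 (adjusted p = 0.26) with VPA at 4 h and 0.11 (adjusted p = 0.477) at 64 h, and in control culture 0.76 (adjusted p = 4.73e-06) at 64 h against 4 h. After centring Npc1 and Npc2 changed sign in that last comparison.

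Stard4, a soluble protein that carries sterols between membranes, rose in culture, like most synthesis genes. It had 6.10, 6.13 and 6.0 in Ctrl4h, 7.15 and 6.96 in Ctrl16h and 7.93, 7.77 and 7.82 in Ctrl64h, with no overlap, and rose by 1.76 (SE 0.10, adjusted p = 1.12e-09) over the course (0.84 after centring, below 2-fold). By 16 h the change was 0.98 (adjusted p = 1.88e-05), and it passed 2-fold without Ctrl4h replicate 2 (1.00) or Ctrl16h replicate 2 (1.07). With VPA it had 7.64, 7.83 and 7.82 at 64 h and 6.78, 6.90 and 6.51 at 4 h, a rise of 1.03 (SE 0.10, adjusted p = 6.23e-07), which was 0.92 without VPA4h replicate 3. Against the controls it was 0.65 (adjusted p = 0.000191) in VPA4h and -0.076 (adjusted p = 0.659) in VPA64h, and the difference of these effects was -0.73 (adjusted p = 0.00259).

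Mylip, an E3 ligase that marks lipoprotein receptors for breakdown, had 8.10, 8.20 and 8.16 in Ctrl4h, 6.97 and 7.01 in Ctrl16h and 7.04, 7.59 and 7.39 in Ctrl64h. The 4 h arrays stood above all later ones, and Mylip fell by 16 h, with a change of -1.16 (SE 0.16, adjusted p = 5.97e-05), while for Ctrl64h against Ctrl4h it was -0.81 (adjusted p = 0.000123). With VPA it had 7.23, 7.55 and 7.66 at 64 h and 8.49, 8.73 and 8.89 at 4 h, and fell with a change of -1.22 (SE 0.14, adjusted p = 2.48e-06). VPA4h arrays lay above Ctrl4h arrays (0.55, adjusted p = 0.00818), and at 64 h the arrays with and without VPA overlapped (0.14, adjusted p = 0.532). Of the 4 transport genes 1 rose and none fell in VPA4h, where 0.867% of all tested probe sets rose, and none passed both limits in VPA64h. Between 4 h and 64 h without VPA 1 rose and none fell, where 6.68% rose. After centring none passed both limits in VPA4h, and in the last comparison Mylip fell and none rose.

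Both exporters fell in control culture within 16 h, the interval in which 9 of the 18 synthesis genes rose. Of all tested probe sets 1.21% fell and 0.705% rose there. Abca1, which loads cholesterol onto lipid-poor apolipoproteins, had 8.39, 7.91 and 8.38 in Ctrl4h, 6.73 and 6.52 in Ctrl16h and 6.67, 7.17 and 6.88 in Ctrl64h. Abcg1, which passes cholesterol to high-density lipoprotein, had 9.53, 9.30 and 9.22 in Ctrl4h, 7.58 and 7.32 in Ctrl16h and 7.60, 7.54 and 7.49 in Ctrl64h. In both genes the 4 h arrays were all above the rest, and the 16 h and 64 h arrays overlapped. Abca1 fell by 16 h with a change of -1.60 (SE 0.21, adjusted p = 4.26e-05) and Abcg1 with -1.90 (SE 0.12, adjusted p = 4.74e-08). Against 4 h the 64 h changes were -1.32 (SE 0.18, adjusted p = 1.62e-05) and -1.81 (SE 0.10, adjusted p = 9.72e-10). Both falls were also present after centring on housekeeping genes.

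With VPA the arrays of only 1 exporter separated at 64 h. Abca1 had 5.73, 5.86 and 6.25 in VPA64h against 6.67, 7.17 and 6.88 in Ctrl64h, with no overlap, and was lower by p alone at -0.96 (SE 0.18, adjusted p = 0.00117). It passed 2-fold without Ctrl64h replicate 1 (-1.08) or VPA64h replicate 3 (-1.11). Abcg1 had 7.43, 7.59 and 7.35 in VPA64h against 7.60, 7.54 and 7.49 in Ctrl64h, which overlapped, and the change was -0.081 with a 95% interval of -0.30 to 0.14. At 4 h Abca1 had 7.78, 7.70 and 8.33 in VPA4h, overlapping with Ctrl4h (-0.29, adjusted p = 0.349), and Abcg1 had 9.54, 9.54 and 9.33, which also overlapped (0.12, adjusted p = 0.542). Between 4 h and 64 h with VPA both fell, where 2.29% of all tested probe sets did. The change was -1.99 (SE 0.18, adjusted p = 2.59e-07) for Abca1 and -2.01 (SE 0.10, adjusted p = 5.29e-10) for Abcg1. The difference of the VPA effects was -0.67 (adjusted p = 0.0968) for Abca1 and -0.20 (adjusted p = 0.444) for Abcg1.

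Macrophages, endothelial cells and lymphocytes were possible companions of the HSCs, and their markers were read on the same arrays. The summed level of 9 Kupffer cell or macrophage markers, as log2, was 9.61 to 10.54 in Ctrl4h, 9.38 to 9.48 in Ctrl16h and 10.02 to 10.84 in Ctrl64h. That of 8 sinusoidal endothelial markers was 12.01 to 12.33, 10.84 to 11.06 and 11.08 to 11.42 at these times, and that of 5 lymphocyte markers 8.82 to 9.88, 8.24 to 8.48 and 7.62 to 7.91. All 3 sums were lower in both Ctrl16h arrays than in any Ctrl4h array. The sums weigh bright probe sets most, chiefly Plvap, with a mean of 10.62 in Ctrl16h and 11.98 in Ctrl4h, and Ccl5, with 7.27 and 8.99. Over the genes of a list the median change for Ctrl16h against Ctrl4h was -0.38 for macrophage, -0.23 for endothelial and -0.038 for lymphocyte markers, and the lymphocyte genes Cd3e and Nkg7 were at 0.065 and 0.12. The sums therefore do not stand for whole cell types. None of the 9 macrophage markers fell at least 2-fold by 16 h, while 1 of 8 endothelial markers (Plvap) and 1 of 5 lymphocyte markers (Ccl5) did. Of all tested probe sets 1.21% fell and 0.705% rose in that comparison. In Ctrl64h the macrophage sum overlapped with Ctrl4h, and by p alone 4 of the 9 macrophage markers were lower and none higher. Of all 23410 tested probe sets 7405 were lower and 5862 higher in that comparison. With VPA at 64 h the macrophage sum was 9.82 to 10.53 and the endothelial sum 10.23 to 10.61. Hepatocytes make and secrete much cholesterol. The sum of 8 hepatocyte markers was 9.15 to 10.08 in VPA4h, 9.16 to 10.00 in Ctrl4h, 8.99 to 9.68 in Ctrl16h, 8.48 to 9.16 in VPA64h and 8.41 to 9.30 in Ctrl64h. This sum too weighs bright probe sets most, chiefly Alb, with a mean of 8.31 in Ctrl4h. Fewer cells of a type and less RNA per cell cannot be told apart in such bulk samples, and the part of other cells in these results was not tested.

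The oxysterol enzymes had the largest changes with VPA among the 31 genes, Ch25h at 4 h and Cyp7b1 at 64 h. Cyp7b1, a hydroxylase that starts the breakdown of oxysterols, had 5.0, 5.27 and 5.27 in VPA64h, against 7.83, 7.41 and 7.54 in Ctrl64h. The VPA64h arrays were the lowest of all 14, and the change was -2.42 (SE 0.22, adjusted p = 1.1e-06), a 5.34-fold fall. It is a value of 1 probe set on the array, and no second method was analysed here. At 4 h it had 6.75, 6.72 and 6.45 in VPA4h and 7.93, 7.46 and 6.70 in Ctrl4h. Ctrl4h replicate 3 lay within the VPA4h range, so the arrays overlapped, and the change was -0.72 (SE 0.22, adjusted p = 0.0244), or -1.05 without that array. The effect at 64 h minus that at 4 h was -1.70 (SE 0.31, adjusted p = 0.0012). In VPA64h against Ctrl64h 2 of the 10 stellate markers and 1 of 8 endothelial markers also fell, where 1.14% of all tested probe sets did. None of the 9 macrophage markers fell. By p alone 5 stellate markers were lower and 2 higher, 4 endothelial markers were lower and none higher, and 1 macrophage marker was lower. The part of these cells was not tested.

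In control culture Cyp7b1 dipped at 16 h. It had 6.30 and 6.05 in Ctrl16h, below every Ctrl4h and Ctrl64h array. It fell by 16 h with a change of -1.19 (SE 0.24, adjusted p = 0.00214), which was -0.90 without Ctrl4h replicate 1, and rose after 16 h by 1.42 (SE 0.24, adjusted p = 0.000208), which was 0.87 after centring on housekeeping genes. In that second interval 2 of 9 macrophage markers (Lyz2 and Ctss) and 4 of 10 stellate markers also rose. None of these markers fell, where 4.52% of all tested probe sets rose and 2.08% fell. By p alone 4 macrophage markers were higher and 1 lower, and 5 stellate markers were higher and 2 lower. The part of these cells was not tested. For Cyp7b1 the Ctrl64h and Ctrl4h arrays overlapped (0.23, adjusted p = 0.371, with the sign turned after centring). With VPA it fell between 4 h and 64 h, at -1.46 (SE 0.22, adjusted p = 4.03e-05).

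Ch25h, which makes an oxysterol by hydroxylating the cholesterol side chain, fell with VPA at 4 h. It had 6.50, 6.21 and 6.59 in VPA4h against 8.49, 7.60 and 7.49 in Ctrl4h, with no overlap, and the change was -1.43 (SE 0.24, adjusted p = 0.000329). At 64 h it had 6.67, 6.19 and 6.28 in VPA64h against 7.30, 6.50 and 6.95 in Ctrl64h, which overlapped (-0.54, adjusted p = 0.124), and the difference of the effects was 0.89 (adjusted p = 0.093), or 1.08 without Ctrl64h replicate 1. Without VPA it fell by 16 h, to 6.08 and 6.55 in Ctrl16h, with a change of -1.55 (SE 0.27, adjusted p = 0.000606). For Ctrl64h against Ctrl4h it was -0.94 (adjusted p = 0.00347) and passed 2-fold without Ctrl4h replicate 2 (-1.08), Ctrl4h replicate 3 (-1.13) or Ctrl64h replicate 1 (-1.14) and after centring (-1.87). Its levels in VPA4h lay in the range of the later groups, and for VPA64h against VPA4h the change was -0.054 with an interval of -0.57 to 0.46.

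**Figure D4:**
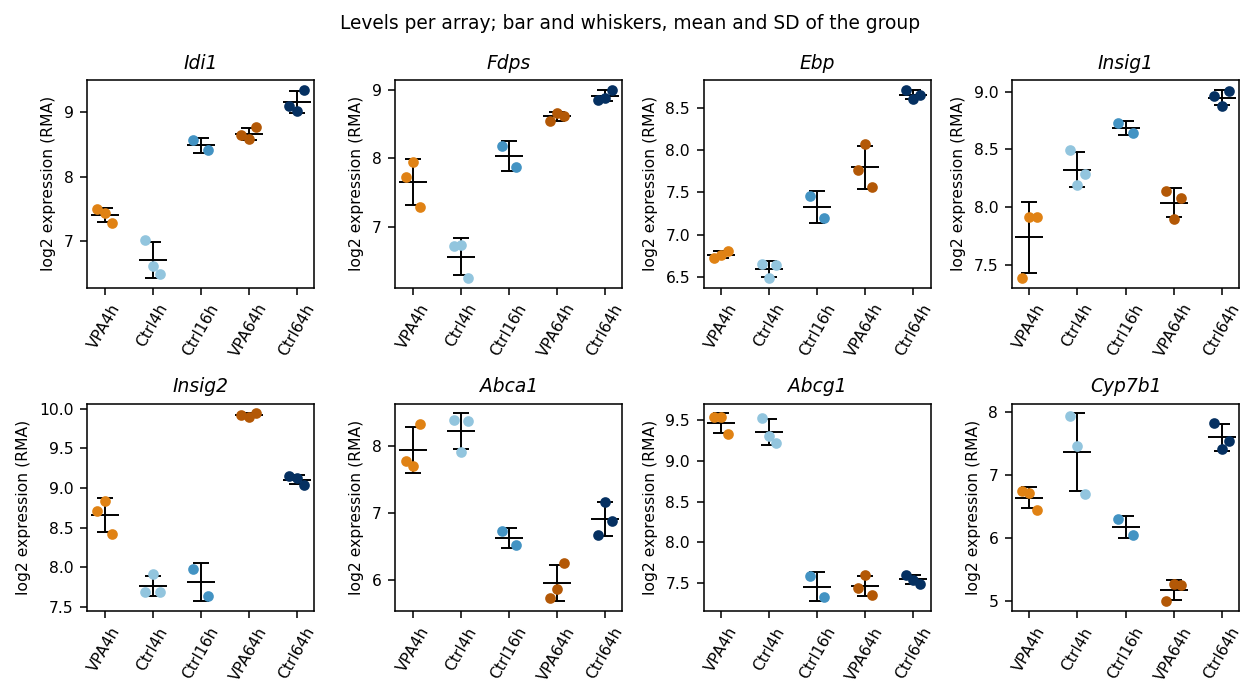
Log2 level of 8 genes on each array (points) in the 5 groups, with the group mean (bar) and SD (whiskers, n = 3, or 2 for Ctrl16h); each panel has its own axis. Idi1 and Fdps stand higher at each later control time, Insig1 and Insig2 are shifted in opposite directions by VPA, Abca1 and Abcg1 drop by 16 h, and Cyp7b1 is lowest in VPA64h; after centring on housekeeping genes Insig1 at 64 h against 4 h in control cells changes sign.

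A further 37 genes of the pathway outside the 33 were looked up, of which 32 were measured. None of them rose or fell in Ctrl16h against Ctrl4h, where 0.705% of all tested probe sets rose and 1.21% fell. In VPA4h against Ctrl4h 2 rose and none fell, beside 0.867% and 0.555% of all, Lipa, the lysosomal lipase that frees cholesterol from its esters, by 1.20 (SE 0.10, adjusted p = 3.15e-07) and Gramd1a, a sterol carrier of the endoplasmic reticulum, by 1.02 (SE 0.094, adjusted p = 1.24e-06). In VPA64h against Ctrl64h 2 fell and none rose, beside 1.14% and 1% of all, Nr1h3, which encodes a liver X receptor, with -1.01 (SE 0.12, adjusted p = 1.61e-05) and Tmem97, a sterol-binding membrane protein, with -1.03 (SE 0.09, adjusted p = 8.48e-07). Tmem97 was also the only one of the 32 with a difference of VPA effects past both limits, where 1.7% of all fell and 0.893% rose, at -1.21 (SE 0.13, adjusted p = 1.39e-05). In Ctrl64h against Ctrl4h 5 of the 32 rose and 1 fell, beside the 6.68% and 3.71% of all tested probe sets. Counts after centring on housekeeping genes were not made for these 32 genes. Centring moved the median change of all tested probe sets by -0.92 here and by -0.81 for VPA64h against VPA4h. Rises of these genes over culture time therefore hold only relative to the array. Cyp39a1, another oxysterol hydroxylase, rose by 2.46 (SE 0.11, adjusted p = 9.45e-11), and Gramd1b, a relative of Gramd1a, fell with -1.57 (SE 0.12, adjusted p = 1.91e-08). For VPA64h against VPA4h 3 rose and 1 fell, beside 5.26% and 2.29% of all, among them Cyp39a1 at 2.67 (SE 0.11, adjusted p = 8.92e-11), Acss2, which makes acetyl-CoA from acetate, at 1.86 (SE 0.09, adjusted p = 2.78e-10) and Gramd1b at -1.43 (SE 0.12, adjusted p = 7.68e-08). Acss2 was 0.99 (SE 0.09, adjusted p = 1.17e-06) in VPA64h against Ctrl64h, just under 2-fold.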

How the data were processed

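RNA of 14 HSC cultures was labelled and hybridised to Affymetrix Mouse Gene 1.0 ST arrays. The authors deposited log2 values made with RMA (background correction, quantile normalisation, summarisation of probes). The paper names GeneSpring and the submitters' processing notes name Affymetrix Expression Console, and a genome build is not given in the sources used here. The deposited log2 values were used as they are. Quantile normalisation removes a change shared by most transcripts.

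Of 35557 probe sets, 21789 were paired with 1 gene symbol by the platform annotation, 1621 with several and 12147 with none. The 23410 with a symbol were fitted with limma 3.58.1 (R 4.3.3, lmFit and eBayes, 5 groups in 1 fit, 9 residual and 6.52 prior degrees of freedom). Tests are two-sided with Benjamini-Hochberg adjustment over all 23410. Calls needed an adjusted p under 0.05 and at least 2-fold. The fit was tested on simulated data. Deviations from the group means of same-numbered arrays correlated at 0.14 to 0.28 between VPA4h and Ctrl4h and at 0.16 to 0.17 between VPA64h and Ctrl64h, all 3 pairs each, so by this check the labels' replicate numbers pair these arrays; over all groups 13 of 26 same-numbered and 6 of 52 other pairs exceeded 0.1. The fit without the block was kept. Idi1 and Fdft1 had 2 probe sets each, and the one with the highest mean was used.

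Every member is accounted for, and those called in at least 1 of 7 comparisons are given with their arrays. Of the other pathway genes, up to 4 per comparison are named, those with the largest changes among called ones. Members and lists were chosen with earlier results of these data known. Alternatives were another moderation, an ordinary F-test, the groups in the fit, a replicate block, other limits and filters, centring on 9 housekeeping genes, averaging probe sets and leaving out each array. Promoters came from RefSeq (GRCm38.p6).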

Additional observations from a re-analysis of the deposited data

Results flagged for a closer look

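The effect of VPA differed between 64 h and 4 h for 5 genes of the group, by limma's test of the difference of effects. For Fdps the effect was -0.30 at 64 h and 1.09 at 4 h, a difference of -1.39 (adjusted p = 0.000376). For Idi1 it was -0.49 and 0.70, a difference of -1.19 (adjusted p = 0.000284). Ebp had -0.85 and 0.17, which differ by -1.02 (adjusted p = 0.000347), and Sc5d had -0.079 and 0.93, which differ by -1.01 (adjusted p = 0.000582). For these 4 enzymes of synthesis the effect was above 0 at 4 h and below 0 at 64 h, although only Idi1 passed the p limit at both times, and the interval of the 64 h effect held 0 for Fdps (-0.63 to 0.025) and Sc5d (-0.33 to 0.17). Cyp7b1 was below 0 at both times, with -2.42 at 64 h and -0.72 at 4 h, a difference of -1.70 (adjusted p = 0.0012). The cause of these differences was not tested. Cells with VPA were compared with controls of the same time, and the 4 h and 64 h cultures differ in time on plastic as well as in time with the drug, which cannot be told apart.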

How the results depend on the processing

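No member changed direction past the limits under any alternative, and of 5394 values of single genes 5233 kept their side of the threshold, 44 lost it and 117 gained it. The moderated fit with trend and robust settings, the ordinary F-test over the groups (not run for the difference of VPA effects), fits of only the groups compared, the limit of 0.01, the filter on dim probe sets, the other sets of tested probe sets and the mean of a gene's probe sets changed no call of a member. With no fold limit the members called numbered 20 for VPA4h against Ctrl4h, 15 for VPA64h against Ctrl64h, 26 for Ctrl16h against Ctrl4h, 20 for Ctrl64h against Ctrl16h, 25 for VPA64h against VPA4h and 11 for the difference of VPA effects, since smaller changes then count. In the same order 5020, 5621, 4708, 10082, 11790 and 3713 of all 23410 tested probe sets passed the p limit alone. Centred on housekeeping genes 6 were called for VPA64h against VPA4h, against 13 without centring, with 5 shared. For Ctrl64h against Ctrl4h it was 12 (5 rose, 7 fell) against 18 (16 rose, 2 fell) with 7 shared, and for Ctrl64h against Ctrl16h 3 falls against 3 rises with none shared. Leaving out 1 array at a time gave 2 to 6 for VPA4h against Ctrl4h, 1 to 2 for VPA64h against Ctrl64h, 13 to 16 for Ctrl16h against Ctrl4h, 3 to 4 for Ctrl64h against Ctrl16h, 18 to 19 for Ctrl64h against Ctrl4h, 12 to 15 for VPA64h against VPA4h and 3 to 5 for the difference.

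Over all tested probe sets, centring turned the split of rises and falls to 150 and 188 against 203 and 130 for VPA4h against Ctrl4h, 45 and 738 against 165 and 283 for Ctrl16h against Ctrl4h, 368 and 3108 against 1058 and 486 for Ctrl64h against Ctrl16h, 258 and 12027 against 1564 and 868 for Ctrl64h against Ctrl4h, 189 and 8630 against 1231 and 537 for VPA64h against VPA4h and 351 and 291 against 209 and 397 for the difference. With the replicate block, members called numbered 3, 1, 14, 3, 18, 13 and 5 in the order of the leave-out counts, as without it, and no call of a member changed. The numbers paired VPA with control arrays at 4 h and at 64 h, but not the other groups compared, where not every same-numbered pair correlated over 0.1. Arrays give no depth, and 2 or 3 per group limit the precision.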
